A study of Arabidopsis thaliana with 8 samples.

Results

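The loci described here are 142 places on the arms of the 5 Arabidopsis thaliana chromosomes that the RefSeq annotation classes as pseudogenes. Each has 1 probe set on the Affymetrix ATH1 array that, by the form of its name, is unique to it. They were chosen from 22746 probe sets by annotation and position, with no filter on signal. The name of the probe set ends in _at, the form for a set designed against a single transcript, and not in _s_at or _x_at, whose probes several sequences share. Whether related copies add to the signal of such a probe set was not tested. The probe set names 1 gene, and in the assembly TAIR10.1 that gene starts outside intervals around the centromeres. These run from 11.5 to 17.7 Mb on chromosome 1, 1.1 to 7.2 Mb on chromosome 2, 10.3 to 17.3 Mb on chromosome 3, 1.5 to 6.3 Mb on chromosome 4 and 9 to 16 Mb on chromosome 5. The 142 probe sets name 142 different genes, with 36 on chromosome 1, 40 on chromosome 2, 25 on chromosome 3, 26 on chromosome 4 and 15 on chromosome 5. Another 592 unique probe sets name pseudogene-annotated loci inside the intervals and are set beside them.

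Lines in the Landsberg erecta (Ler) background were compared, 2 in all with 4 arrays each, in a series concerned with genes affected when hog1 relieves silencing of the chalcone synthase gene CHS. The silenced parent, stock N1695, is homozygous at 1 insert that carries an extra CHS copy and silences the resident gene TT4. The other line, 15B, is a mutant of that stock obtained with ethyl methanesulfonate (EMS), so both lines descend from the same insert line. No label names the altered gene, 15B is the 1 mutant line measured, and an EMS line can carry further changes. RNA came from whole plants at growth stage 1.04, with 10 plants pooled, grown on agar (0.7%) that held 1% sucrose, in light for 18 h, at 22 °C and following a cold period of 3 days (4 °C). The design text gives 4 biological replicates. Because whole plants were used, a change in the number of cells that express a locus and a change in RNA per cell cannot be told apart.

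As background, many loci annotated as pseudogenes in Arabidopsis are genes of transposable elements or their remains, although this biotype does not separate them from decayed copies of ordinary genes. Plants keep transposable elements silent through DNA methylation, methylation of histone H3 at lysine 9 and small RNAs. Methyl groups come from S-adenosylmethionine, and HOG1 (SAHH1), the S-adenosylhomocysteine hydrolase, removes the by-product that inhibits methyltransferases. Elements are dense around centromeres, whereas on the arms they mostly lie singly or in small groups among genes. Of the 142 loci, 141 carry only a locus number as their name, so no function is given for them here. The exception is CYTOSLEEPER (AT1G15300), named after the SLEEPER family of proteins related to hAT transposases.

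Most of these loci gave little signal in either line. The mean signal in the silenced parent was under 30 units, 30% of the level to which the arrays had been scaled, for 122 of the 142 (85.9%), against 39.3% of all probe sets. In 114 the mean was under 30 in both lines, and 102 stayed under it on each of the 8 arrays. No detection calls were used here, so a value of a few units cannot be told from absence of the transcript. The median locus had a mean of 7.45 units in the silenced parent and 9.98 in 15B.

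In 15B, 11 of the 142 loci rose and 0 fell (limma on all 22746 probe sets, two-sided, Benjamini-Hochberg adjusted p under 0.05). The risen ones make up 7.75%, and over all probe sets 2.04% were higher and 1.61% lower in 15B by the same rule. Of the 11, 8 rose by at least 2-fold (1.01% of all probe sets). Among probe sets whose silenced parent mean was under 30, a class that holds most of these loci, 2.85% were higher and 0.268% lower, and among the 122 arm loci under that level 7 rose (5.74%). Falls were thus rare among dim probe sets in general. At the level of unadjusted values, 0 arm loci were lower at an unadjusted p under 0.05 (9.21% of all probe sets, 3.26% of the dim ones), against 20 higher (7.54% of all, 7.69% of the dim ones). The 2 groups of arrays did not overlap for 15 arm loci, higher in 15B for 15 and lower for 0. Over all probe sets 4.75% were separate with 15B higher and 5.78% with 15B lower (5.01% and 1.74% of the dim ones). The remaining 131 loci did not pass, with log2 fold changes between -0.39 and 0.69.

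The median log2 fold change over all 142 loci was 0.04, with quartiles of -0.05 and 0.25, and over all probe sets it was -0.02, with quartiles of -0.15 and 0.12. Values are on the log2(signal + 10) scale throughout, which understates the change of a dim locus. Of the 142 loci, 86 had a positive value (60.6%), against 46.5% of all probe sets. The middle of the distribution thus lay close to 0, and the 11 risen values, from 0.79 to 4.22, lay beyond its upper quartile.

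**Figure D1:**
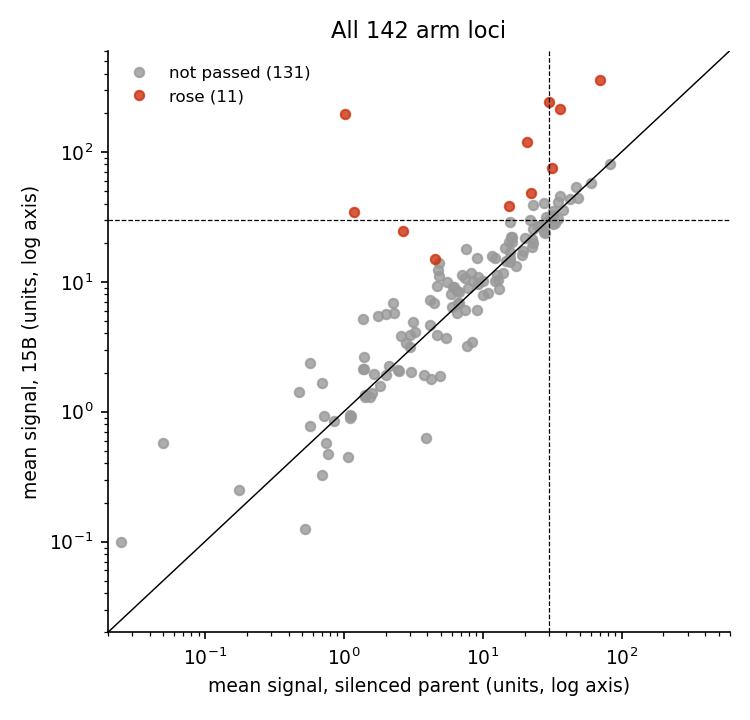
Mean signal of each of the 142 arm loci in the silenced parent (x axis) and in 15B (y axis), in signal units on log axes, n = 4 arrays a line. Red points are the 11 loci that rose and grey points the 131 that did not pass, the diagonal marks equal means and dashed lines mark 30 units. Most points lie under 30 units in both lines and near the diagonal.

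On the log2(signal + 10) scale the highest fold change was that of AT3G47320 on chromosome 3, which was close to 0 in the silenced parent. Its signal there was 0.2, 0.6, 3 and 0.3 units on replicates 1 to 4, and in 15B it was 160.3, 194.6, 190.9 and 239.8. Every 15B array was thus far above every array of the parent. The log2 fold change was 4.22 (SE 0.15, limma adjusted p = 5.38e-08), and with the parent set at 30 units the 15B mean of 196 was at least 6.55-fold higher. Its size depends on how dim values are treated, from 2.70 with values under 30 raised to 30 up to 6.78 with a pseudocount of 1. With values under 30 raised to 30 it came after AT5G43800, which was at 2.85.

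AT5G43800 on chromosome 5, the longest of the risen loci at 7641 bases, had a measurable signal in the parent. It was at 19, 28.6, 39.8 and 33 units there and at 200.6, 239.2, 230.4 and 289.1 in 15B. The groups did not overlap, and the means of 30.1 ± 8.72 and 240 ± 36.8 (SD, n = 4) differed 7.97-fold. The log2 fold change was 2.66 (SE 0.17, limma adjusted p = 4.50e-06).

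AT2G26630 on chromosome 2 was the second brightest of the 142 loci in the silenced parent. Replicates 1 to 4 gave 70.9, 66.1, 73.9 and 70.4 units in the parent and 353, 303.4, 370.4 and 401.7 in 15B. Spread was small within both lines, at 70.3 ± 3.21 and 357 ± 41.1 (SD, n = 4). The means differed 5.08-fold, and the log2 fold change was 2.19 (SE 0.09, limma adjusted p = 1.62e-07).

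AT3G15310 on chromosome 3 rose by a similar amount but was the most variable of the 11 in 15B. It was at 43.3, 33.2, 31.4 and 36 units in the parent and at 300.3, 214.3, 217.6 and 123.9 in 15B. The highest 15B array was thus 2.42-fold above the lowest, a coefficient of variation of 33.7% against 6.97% to 25.6% for the other 10 risen loci. Even the lowest 15B array lay well above the parent, and the log2 fold change was 2.23 (SE 0.21, limma adjusted p = 1.58e-04). Replicate 1 was the highest 15B array for this locus and the lowest for AT3G47320 and AT5G43800, and replicate 4 the reverse. AT3G47320 and AT5G43800 had the same order over the 4 arrays of 15B, and AT3G15310 departed from it.

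AT5G44880 on chromosome 5, the shortest of the risen loci at 486 bases, was under 30 units on each parent array. Its values were 23.9, 16.9, 13.8 and 28.4 units in the parent and 137.6, 105.6, 117.5 and 119.2 in 15B. With the parent set at 30 units, the 15B mean of 120 ± 13.2 (SD, n = 4) was at least 4.00-fold higher. The log2 fold change was 2.10 (SE 0.16, limma adjusted p = 2.35e-05).

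AT2G20460 on chromosome 2 showed a smaller and even rise. It was at 29.8, 33, 28 and 35.6 units in the parent and at 81.6, 78.5, 71.6 and 70.8 in 15B. The groups were separate, the means differed 2.39-fold, and the log2 fold change was 1.04 (SE 0.11, limma adjusted p = 3.51e-04). These 6 loci kept their call in each of the 19 fits that held all arm loci, the floor of 30 units and each array left out included.

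Another pair of risen loci was almost without signal in the parent and dim in 15B. AT3G60170 on chromosome 3 went from 1.6, 1.2, 0.7 and 1.2 units to 41.7, 37.2, 25.6 and 34.3 (log2 fold change 1.99, SE 0.14, limma adjusted p = 1.26e-05). Its annotated span overlaps AT3G60164, a transcribed pseudogene, and the signal of the pair cannot be told apart. AT1G67240 on chromosome 1 went from 2.6, 2.9, 2.4 and 2.7 units to 27.9, 19.1, 26.5 and 25.4 (1.45, SE 0.12, limma adjusted p = 6.25e-05), so that 15B too stayed under 30 units on each array. Both calls were lost when values under 30 were raised to 30 (limma adjusted p = 0.311 and 1).

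On the log2(signal + 10) scale AT1G29650, AT1G12720 and AT2G16610 had the lowest values of the 11. The order depends on the pseudocount, since with 1 in place of 10 AT2G16610 was at 1.69 and AT1G29650 at 1.33, above AT2G20460 at 1.24. All 3 had parent means under 30 units. AT1G29650 was at 9, 11.3, 22.7 and 18.7 units in the parent and at 32.4, 45.7, 40.5 and 34.5 in 15B (log2 fold change 0.95, SE 0.19, limma adjusted p = 0.0220). AT1G12720 was at 27.3, 19.4, 24 and 18.1 against 39.1, 46, 66.6 and 42.1 (0.85, SE 0.17, limma adjusted p = 0.0210). AT2G16610 was at 7.3, 1, 4.6 and 5.2 against 12.1, 17.8, 14 and 15.8 (0.79, SE 0.16, limma adjusted p = 0.0186), under 30 units on all arrays. Their groups did not overlap, yet all 3 calls were lost with values under 30 raised to 30 (limma adjusted p = 0.212, 0.116 and 1 in that order), and that of AT2G16610 also with a pseudocount of 1 (0.0522). Each was lost without certain single arrays as well. That of AT1G29650 was lost without parent replicate 2 and without 15B replicate 2 or 3 (0.0665 to 0.0682 by limma). That of AT1G12720 was lost without replicates 2, 3 or 4 of the parent or replicate 2 of 15B (0.0513 to 0.0649), and that of AT2G16610 without replicate 3 of the parent or replicates 2 or 4 of 15B (0.0540 to 0.0553 by limma).

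**Figure D2:**
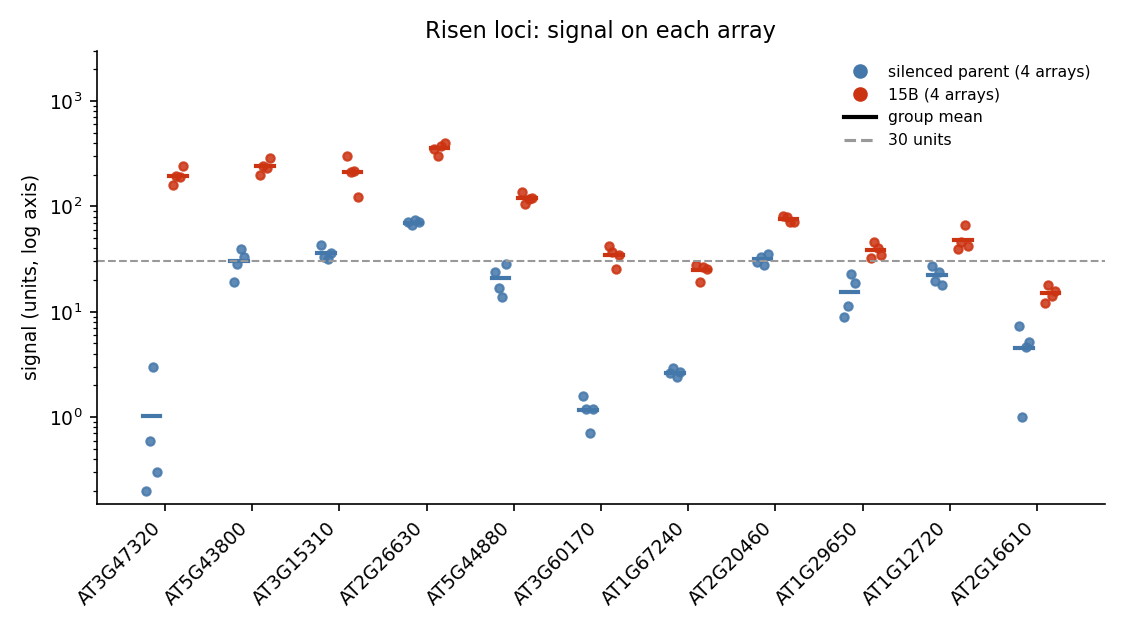
Signal of the 11 risen arm loci on each array, in signal units on a log axis, ordered by log2 fold change. Blue points are the 4 arrays of the silenced parent, red points the 4 of 15B, short bars the group means and the dashed line 30 units. For each locus the lowest 15B array lies above the highest parent array, and parent levels range from about 1 unit for AT3G47320 and AT3G60170 to 70.3 for AT2G26630.

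Most of the loci with the highest signal in the parent did not pass. Of 20 arm loci with a parent mean of at least 30 units, 4 rose (AT2G26630, AT5G43800, AT3G15310 and AT2G20460) and 0 fell. Over all probe sets 2.04% were higher and 1.61% lower, and among the 122 arm loci under 30 units 7 rose (5.74%). The other 16 of the 20 did not pass, with log2 fold changes between -0.18 and 0.26. The brightest, AT1G80020, was at 98.3, 74.5, 64.5 and 90 units in the parent and at 77.2, 80.4, 69.2 and 97 in 15B. These ranges overlap almost wholly, and the 95% interval of its log2 fold change ran from -0.31 to 0.30. AT2G16690 had 75.9, 61.5, 52.4 and 52.6 units in the parent and 51.6, 72, 55.3 and 50.1 in 15B (interval -0.39 to 0.25). For AT5G50315 (-0.12, interval -0.42 to 0.17), AT5G20880 (0.17, -0.09 to 0.42) and AT5G20760 (0.02, -0.28 to 0.32) the groups overlapped too. A change as large as that of AT2G20460 lies outside the interval of each of these 5 loci.

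Another 9 loci were higher in 15B at an unadjusted p under 0.05 and did not pass after adjustment. For 4 of them, AT1G52610, AT1G10160, AT3G55300 and AT2G01840, the groups did not overlap. Over all probe sets, those that passed included, 7.54% were higher at that unadjusted level and 4.75% were separate with 15B higher. The 9 and the 4 are thus not read as more than background. AT1G10160, the brightest of the 4, was at 14.7, 22.4, 23.5 and 31.8 units in the parent and at 43.2, 35.6, 35.4 and 42.8 in 15B (log2 fold change 0.59, SE 0.17, limma adjusted p = 0.0916). CYTOSLEEPER was at 3.1, 4, 9.8 and 2.5 units against 15, 6.1, 11.4 and 22.8 (0.66, SE 0.22, limma adjusted p = 0.153), with overlapping groups. These 9 loci were singled out by their p-values.

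Summed over the loci, the rise lay in few of them. The mean signal of the 142 loci was 11.8 to 14.5 units on the parent arrays and 21.3 to 22.4 on the 15B arrays, so the groups were separate. The 11 risen loci held 12.1% to 13.4% of the summed signal of the 142 in the parent and 41.0% to 45.9% in 15B. The other 131 had means of 11.2 to 13.8 units in the parent and 12.5 to 14.3 in 15B, and these ranges overlap. Since the 11 were picked by this same contrast, the split describes the sum and tests nothing. The share of the 142 loci at 30 units or more was 11.3% to 16.9% on the parent arrays and 16.2% to 19.7% on the 15B arrays, also overlapping, and at 60 units or more it was 1.41% to 2.11% against 4.93% to 5.63%.

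Replicate 4 of the parent stood apart in the dim range. The median signal of the 142 loci was 9.95 units on it against 6.40 to 6.95 on the other 3 parent arrays and 8.90 to 11.6 in 15B. Its scanner background was 198 against 77.6 to 101 on the other 7 arrays. Without it the median log2 fold change of the 142 loci was 0.07 and 12 rose, AT1G12720 losing its call and AT1G10160 and AT2G16670 gaining one. The part of the scanner background in these values was not tested.

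**Figure D3:**
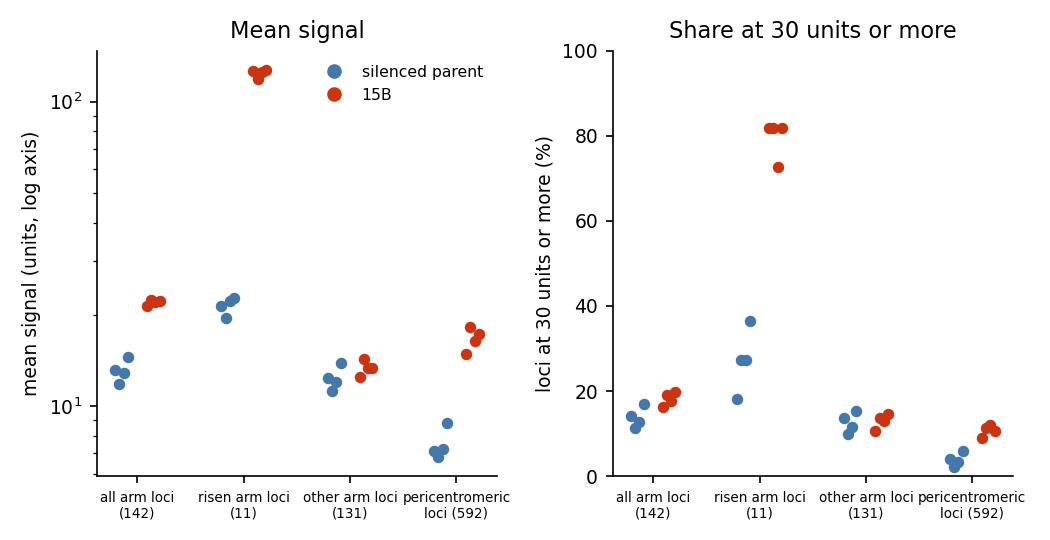
Mean signal on a log axis (left) and percent of loci at 30 units or more (right) on each array, for all 142 arm loci, the 11 risen ones, the other 131 and the 592 unique pericentromeric loci. Each point is 1 array, blue for the silenced parent and red for 15B, and the 11 risen loci were picked by the same contrast. The means of all arm loci are separate between the lines, and those of the other 131 overlap.

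Inside the pericentromeric intervals 65 of the 592 unique pseudogene-annotated loci rose (11.0%) and 0 fell (6 lower at an unadjusted p under 0.05, limma), against the 7.75% and 0 on the arms. The difference between these shares was not tested. The pericentromeric loci were dimmer in the parent, with a mean under 30 units for 96.6% and a median of 4.15 units. Their mean signal was 6.82 to 8.80 units on the parent arrays and 14.8 to 18.2 on the 15B arrays, and their median log2 fold change was 0.07. Protein-coding genes on the arms with unique probe sets, 10946 in all, gave 0.968% higher and 1.55% lower, with a median of -0.02.

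The risen arm loci were spread over 4 chromosomes. There were 3 of 36 on chromosome 1, 3 of 40 on chromosome 2, 3 of 25 on chromosome 3, 0 of 26 on chromosome 4 and 2 of 15 on chromosome 5. On chromosome 4 the log2 fold changes lay between -0.33 and 0.34, and 0 loci passed by limma even before adjustment. At the 2.04% higher of all probe sets, 0 risen of 26 is near the background, and no difference between chromosomes is read from these counts. By distance of the gene start from the nearest interval edge, 2 of 36 loci under 1 Mb rose (5.56%), 4 of 43 at 1 to 3 Mb (9.30%) and 5 of 63 farther out (7.94%). The shares thus do not fall steadily with distance, and with counts this small no order is read from them. AT3G47320 lies under 1 Mb outside its interval and AT5G43800, which had the higher value of the pair once values under 30 were raised to 30, lies 1.60 Mb outside, while AT2G26630, AT3G15310, AT3G60170, AT1G67240 and AT1G12720 lie over 3 Mb away.

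Of the 3 arm loci nearest to an edge, AT2G16610 rose, AT2G16670 went from a mean of 7.63 to 17.7 units (log2 fold change 0.69, limma adjusted p = 0.0947) and AT2G03540 from 2.48 to 2.10 (-0.05), the last pair without passing. Of the 3 nearest on the inner side, AT5G26020 rose from 13.1 to 57.9 units (1.55, limma adjusted p = 1.65e-04), and AT1G32040 (0.02) and AT2G16410 (-0.01) did not pass. Values near the edges were thus mixed on both sides. The segment of chromosome 1 from AT1G56720 to AT1G66100 held 5 arm loci, of which 0 rose and 0 fell by limma (-0.24 to 0.30, 0 at an unadjusted p under 0.05). At the 2.04% higher and 1.61% lower of all probe sets, 0 of 5 is near the background and shows nothing particular to the segment.

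**Figure D4:**
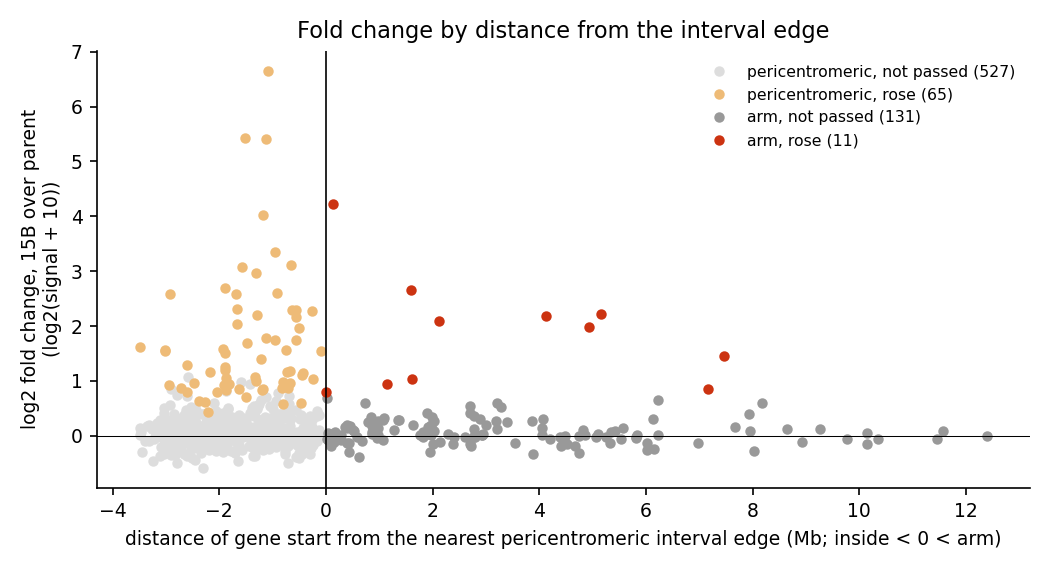
Log2 fold change of 15B over the silenced parent (y axis, on log2(signal + 10)) against the distance of the gene start from the nearest edge of a pericentromeric interval in Mb (x axis, negative inside, positive on the arm). Each point is 1 locus, and colours separate arm from pericentromeric loci and risen from not passed. Risen arm loci occur both beside the edge and over 3 Mb from it.

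Genes beside the risen loci were read from the same fit. For 10 of the 11, a protein-coding gene within 3 genes on at least 1 side had a named unique probe set, giving 15 neighbours, none of which overlaps the risen locus. Of these 0 rose and 0 fell by limma (at an unadjusted p under 0.05, 0 higher and 2 lower), 15 did not pass, and their log2 fold changes lay between -0.28 and 0.27 with a median of -0.03. At the 0.968% higher and 1.55% lower of arm protein-coding genes, 0 of 15 is near the background and shows nothing particular to these neighbours. AT3G47320 had no neighbour with a named unique probe set.

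Several neighbours were bright enough to be measured well. AT2G20450, which encodes a ribosomal protein L14 and lies next to AT2G20460, went from 403 ± 29.3 to 442 ± 51.2 units (SD, n = 4, log2 fold change 0.13, SE 0.09). AT1G67250, near AT1G67240, went from 444 ± 31.7 to 464 ± 21.4 (0.06, SE 0.07). AT1G29660, next to AT1G29650, had the lowest value, from 455 ± 56.3 to 373 ± 51.7 (-0.28, SE 0.11, limma adjusted p = 0.216). AT1G29630, on the other side of that locus, had the highest (0.27, SE 0.22) at under 30 units. For AT2G26630 the measured neighbour AT2G26620 was itself near 0 in both lines (2.08 and 1.88 units) and says little. Neighbours of the 131 loci that did not pass numbered 181, of which 156 are protein-coding, so the sets differ in makeup. Of the 181, 4 rose (2.21%, near the 2.04% of all probe sets) and 2 fell.

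Some arm loci lie close together. Within 3 genes of each other there were 13 pairs, and neither locus passed in any of the 13. Over all probe sets 2.04% were higher and 1.61% lower, so an absence of calls among so few loci is near the background and shows nothing particular to them. None of the 11 risen loci had another arm locus that near. The annotated length of the risen loci had a median of 2159 bases (486 to 7641), against 2204 (183 to 7011) for the other 131, a description without a test.

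**Figure D5:**
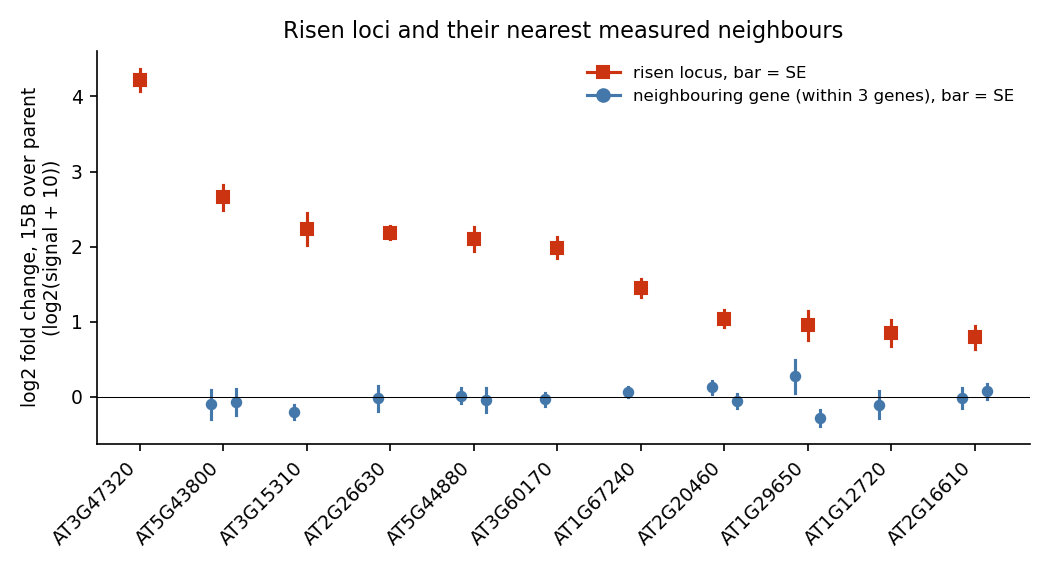
Log2 fold change of 15B over the silenced parent, on log2(signal + 10), for the 11 risen arm loci (red squares) and for their nearest genes with a unique probe set within 3 genes on either side (blue circles). Bars are standard errors. The 15 neighbours lie between -0.28 and 0.27, under every risen locus.

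Few genes that act in silencing could be read here, since few of them had a named probe set in the annotation used. Over the whole array 8730 of the 22746 probe sets carry no gene name, a smaller share than among these genes. The reason for the difference was not examined. Of 28 silencing loci, among them the DNA methyltransferase MET1, the chromatin remodeller DDM1 and SAHH1, 1 had a named probe set. This was DME, a DNA demethylase gene, whose 3 probe sets had log2 fold changes of -0.21, -0.15 and -0.13 without passing (0 of 3 also at an unadjusted p under 0.05, limma). Few markers of tissue makeup were named either, at 2 of 18 for photosynthesis, 2 of 10 for root and 1 of 7 for pollen. The named genes are thus not taken as an even sample of the array. RCA, Rubisco activase, and LHCB4.1, a light-harvesting protein, were bright in both lines at 3747 ± 297 and 4265 ± 465 units in the parent (SD, n = 4) and had log2 fold changes of 0.11 and -0.06. The root hair expansins EXPA7 and EXPA18 were at -0.09 and 0.08. The sperm histone gene MGH3, the 1 named of 7 pollen markers, lay between 1.2 and 3.6 units on all arrays, at -0.06. None of these 5 passed (0 at an unadjusted p under 0.05, limma).

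Across the arrays, log2 signals of all probe sets correlated at 0.976 to 0.983 within lines and 0.958 to 0.968 between them (over probe sets, so with no independent points). The signal at the 3' end over that at the 5' end grows as RNA degrades. For actin this ratio was 4.79 to 8.28 in the parent and 4.26 to 6.47 in 15B. For GAPDH it was 1.59 to 2.30 against 1.41 to 1.91, and for ubiquitin 3.07 to 3.92 against 2.60 to 3.49. The ranges overlapped, but each of these controls had the higher mean in the parent. The part of RNA quality in the values above was not tested.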

How the data were processed

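The deposited file holds the authors' intensity values (linear, 22810 probe sets, 8 arrays). A mean trimmed by 2% at each end came to 100.0 on every array, which shows a scaling by the authors, so changes are relative to the average probe set. What summarised the probes is not given in the sources used here. The number of arrays limits the precision.

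Control probe sets (64) were dropped and log2(value + 10) was taken with no filter on signal, since a filter on the mean of all arrays admits dim loci through the line where they are high. Such a filter, at a mean of 30, was passed by 25 of the 142 loci, 6 of them with a parent mean under 30. All 22746 probe sets entered 1 limma fit (version 3.58.1, R 4.3.3, lmFit and trended eBayes, two-sided), and p-values were adjusted over all of them by Benjamini-Hochberg. The limma fit was also run on simulated normal values with planted changes. These did not imitate the floor of dim signals, so the run does not bear on calls among dim loci.

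Gene names came from the 2016 platform annotation, joined by Entrez number to RefSeq's table for TAIR10.1 (13436 of 13513 probe sets with 1 gene matched, 503 hold several). Positions served to place loci relative to the intervals and in gene order. No sequence was used here. Pairs of arrays shared at most 0.958% of their values.

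Named were the risen loci with separate groups (up to 15), falls likewise (up to 10), the 6 brightest in the parent, the 3 nearest an interval edge on each side, neighbours of risen loci and up to 3 genes a list. The members, the lists and the 9 loci that passed only before adjustment were chosen with earlier results of these data known. Alternatives covered pseudocounts, filters, a floor, scalings, variance models, thresholds, the probe sets fitted, a replicate block and each array left out.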

Additional observations from a re-analysis of the deposited data

Results flagged for a closer look

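Dixon's criterion was applied to 50 sets of 4 arrays, and in 5 of them 1 array lay apart from the other 3, where about 1 in 20 would by chance alone. AT3G47320 was at 3 units on replicate 3 of the silenced parent against 0.2 to 0.6 on the others, all close to 0. The median signal of the 142 arm loci was 9.95 on replicate 4 of the silenced parent against 6.40 to 6.95. That array also had a scanner background of 198 against 77.6 to 94.3 and a noise of 13.5 against 3.91 to 5.15. The outlier cells of 15B numbered 1353 on replicate 2 and 403 to 505 on its other arrays, and 8 arm loci rose when it was left out.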

How the results depend on the processing

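Of the 11 arm loci that rose, 11 did so with quantile normalization, median centring, a pseudocount of 30, no intensity trend, robust eBayes, array weights or only _at probe sets, and 10 with a pseudocount of 1. The count was 8 with a filter at a mean of 30 (7 of the 11 and AT1G10160) and 5 with one at 60. Both filters act on the mean of all arrays, so loci dim in the parent but high in 15B stay in. Their counts are therefore no independent support. The number risen was 6 with values under 30 raised to 30, which levels dim loci. It was 8 with a 2-fold limit on the log2(signal + 10) scale or an adjusted p under 0.01. Leaving out each array gave 8 to 12. Falls numbered 0 in each setting. Over all probe sets, 830 changed, against 485 with values under 30 raised to 30, 396 at an adjusted p under 0.01, 273 with a 2-fold limit and 528 to 868 without 1 array (528 without replicate 3 of the silenced parent). The median log2 fold change of the arm loci was 0.02 to 0.07 without 1 array. It was 2.21 over the 6 left by the filter at 60. That filter admits loci through 15B, such as AT3G47320 and AT5G44880 with parent means of 1.025 and 20.75 units. The 2.21 thus reflects the selection and is no result about the arm loci. At a level of 60 units in place of 30, the mean share of arm loci was 1.76% in the silenced parent (13.7% at 30) and 5.28% in 15B (18.1% at 30). Without replicate 4 of the silenced parent and replicate 2 of 15B, the shares at 30 were 12.7% and 17.8%, an alternative chosen after seeing the data.

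Among loci that did not pass, signs near 0 turned. AT1G80020 was at 0.016 with quantile normalization, 0.0041 with median centring and 0.012 with array weights. With 1 array left out, AT1G80020 ranged from -0.10 to 0.077, AT2G16690 from -0.17 to 0.030 and AT5G20760 from -0.050 to 0.10.

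In the fit with a replicate block, 10 arm loci rose (AT2G16610 lost its call at a limma adjusted p = 0.0558) and 849 probe sets changed. The residual correlations of arrays with the same number were 0.25, -0.01, 0.05 and 0.05. Those of arrays with different numbers were not computed, so whether the numbers pair the arrays was not settled. Dim signals limit the description, since 114 of the 142 loci lay under 30 units in both lines.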
